A study of Mus musculus with 21 samples.

Results

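Npy2r, Awat1 and Spag11b are 3 genes with almost no RNA in untreated A/J mouse lung and with counts in every library of tumours induced by the tobacco carcinogen NNK. They were taken by symbol from a count table of 38924 gene symbols, and were chosen by their counts in Control lung, LPS lung and the tumour groups and by the lower values with indole-3-carbinol (I3C). Those comparisons are therefore described here without a test. RNA of female A/J mice was sequenced at 22 weeks in 21 libraries, 3 in each of 7 groups. The NNK_LPS_Sil_I3C group received NNK (1 intraperitoneal dose of 100 mg/kg), then LPS by the nose (5 µg per mouse, 1 time per week from 1 week after NNK), with silibinin (Sil) and I3C in the diet at 20 µmol/g each. NNK_LPS_Sil and NNK_LPS_I3C received NNK and LPS with only the 1 named agent in the diet. NNK_LPS received NNK and LPS, NNK received NNK alone, LPS received the NNK vehicle and LPS, and Control received the vehicle. By the labels' protocols, all 5 NNK groups are represented by tumours cut from the lung and pooled from 3 mice per group, whereas LPS and Control are normal lung. An effect of NNK and a difference between tumour and lung therefore cannot be told apart. Whether a group's 3 libraries stand for separate mice is not stated, so p-values measure the spread between these libraries, which may be technical.

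Npy2r encodes the Y2 receptor for neuropeptide Y and peptide YY, a receptor coupled to inhibitory G proteins that is best known on neurons, where it restrains transmitter release. Awat1 encodes an acyl-CoA wax alcohol acyltransferase of the DGAT2 family, an enzyme that joins fatty alcohols to fatty acids and is known from sebaceous glands of the skin. Spag11b encodes a beta-defensin-like secreted protein known from the epididymis of the male tract. None of the 3 is a usual marker of lung, and the animals were female.

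The genes lie on different chromosomes of the GRCm38 build. Npy2r (ENSMUSG00000028004.12) spans 82538383 to 82548084 on the minus strand of chromosome 3. Awat1 (ENSMUSG00000015665.8) spans 100572251 to 100578205 on the plus strand of chromosome X, and Spag11b (ENSMUSG00000059463.7) spans 19140759 to 19143010 on the plus strand of chromosome 8. All 3 are annotated as protein-coding. Their merged exons cover 3383, 1390 and 1740 bases in GENCODE M21. No other annotated gene overlaps Npy2r or Awat1. Spag11b overlaps the model Gm45826, which was not analysed here. Reads of 50 bases would place nearly all of these transcripts uniquely. No 50-base window of Npy2r (3477 windows) or Awat1 (1341 windows) occurs in a transcript of another gene, and of 1785 windows of Spag11b 33, or 1.85%, occur in Gm45826 and none in its paralog Spag11a. Neither read length nor counting tool is given in the sources used here.

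The 250 bases before the RefSeq start (GRCm38.p6) are shown for Npy2r and Awat1, the 2 of the 3 genes matched in the promoter table, because both genes have at most 3 counts summed over Control lung and counts in every tumour library. The Npy2r window is chr3:82548086-82548335 on the minus strand, inside the span of a longer RefSeq model of the gene. The Awat1 window is chrX:100571997-100572246 on the plus strand. Capitals mark matches on either strand to 4 motifs, TGANTCA (AP-1), GCGTG (core of the AhR-ARNT site), TGACG (the CRE core) and CAAGTG (core of the NKX2-1 site).
Npy2r: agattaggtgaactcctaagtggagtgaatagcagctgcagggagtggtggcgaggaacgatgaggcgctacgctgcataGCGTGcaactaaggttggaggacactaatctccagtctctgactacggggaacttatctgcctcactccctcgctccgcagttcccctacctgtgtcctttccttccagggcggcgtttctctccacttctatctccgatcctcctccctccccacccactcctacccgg
Awat1: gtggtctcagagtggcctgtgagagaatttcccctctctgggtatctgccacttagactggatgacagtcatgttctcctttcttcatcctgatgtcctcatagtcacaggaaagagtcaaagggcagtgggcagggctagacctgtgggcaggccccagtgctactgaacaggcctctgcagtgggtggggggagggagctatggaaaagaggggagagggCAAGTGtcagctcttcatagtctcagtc
The Npy2r window held 1 match to GCGTG and none to the other motifs. The Awat1 window held 1 match to CAAGTG and none to the other motifs. Of 32851 such windows in the table, 28.2% hold GCGTG, 11.6% CAAGTG, 17.8% TGACG and 6.75% TGANTCA on either strand. A match is a description of letters and not a bound site.

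Libraries held 13.3 M to 25.3 M counts in total, and 1 count of a gene equals 0.0382 to 0.0758 CPM, the library-scaled counts used here, after normalisation by the trimmed mean of M-values. All 3 genes passed the low-count filter that left 15770 genes, through the tumour groups where they are high. Lung identity was clear in every group, since the 8 alveolar type 2 markers summed to 36000 to 37500 CPM in NNK_LPS_Sil_I3C, 42000 to 66600 in NNK_LPS_Sil, 36900 to 38200 in NNK_LPS_I3C, 49200 to 68200 in NNK_LPS, 43800 to 52000 in NNK, 21000 to 24300 in LPS and 30400 to 36400 in Control. The sample labels name no batch. The libraries fall into 3 sets, called batches here, by how many mt-Atp8 counts they hold per mt-Atp6 count, cut at 0.05 and 0.1. The ratio was 0.0206 to 0.0236, 0.0782 to 0.0876 and 0.117 to 0.135 in batches A, B and C. These batches are inferred from that ratio alone, and what they stand for is not known. LPS 3, NNK_LPS, NNK_LPS_Sil and NNK_LPS_I3C 1 were in batch B. NNK_LPS_I3C 2 and 3 and NNK_LPS_Sil_I3C were in batch C, and the rest in batch A. NNK_LPS thus shares no batch with NNK, and NNK_LPS_Sil_I3C none with NNK_LPS_Sil. For these pairs batch and group cannot be told apart beyond a fitted batch term.

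In NNK tumours Npy2r had 99, 72 and 36 counts, against 0, 0 and 1 count in Control lung. This equals 4.63 ± 2.14 CPM in NNK and 0.0215 ± 0.0373 CPM in Control (SD, n = 3 each), a ratio of pooled counts of 205 with a 95% counting interval of 36.4 to 8130. LPS lung was as empty of this receptor's RNA as Control lung, with 1, 0 and 0 counts. In NNK_LPS tumours Npy2r had 39, 41 and 26 counts, a ratio to LPS lung of 94.6 (95% counting interval 16.6 to 3770). The lowest tumour library was NNK_LPS_Sil_I3C 2 with 7 counts (0.319 CPM, exact 95% interval 0.128 to 0.658), and no normal lung library had more than 1 count. These intervals, and the floors used further on, cover counting error only, because PCR copies were not told from separate molecules.

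Awat1 had 38, 16 and 65 counts in NNK tumours, against 2, 0 and 1 in Control lung. That is 2.63 ± 1.59 CPM in NNK and 0.0721 ± 0.0761 CPM in Control (SD, n = 3 each), a pooled ratio of 39.3 (95% counting interval 13.1 to 193). Unlike the other genes, Awat1 was present in LPS-treated lung, which holds no tumour by its label, with 13, 41 and 8 counts or 1.42 ± 1.21 CPM, and a pooled ratio to Control of 21.1 (95% counting interval 6.89 to 105). The highest LPS library, at 2.80 CPM, lay above 2 of the 3 NNK tumour libraries (2.54 and 1.09 CPM), so the working description of the 3 genes as confined to NNK tumours does not hold for Awat1. In NNK_LPS tumours it had 99, 168 and 91 counts, 7.47 ± 3.11 CPM, against 1.42 ± 1.21 CPM in LPS lung.

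Spag11b was the most clear-cut of the 3, with no count in any of the 6 libraries of normal lung. It had 24, 8 and 37 counts in NNK tumours, against 0, 0 and 0 in Control lung, and 70, 117 and 94 counts in NNK_LPS tumours, against 0, 0 and 0 in LPS lung. Taking 3 counts per group as the floor (0.0676 CPM in Control and 0.0690 CPM in LPS), Spag11b was at least 22.8-fold higher in NNK than in Control and at least 83.6-fold higher in NNK_LPS than in LPS. Counts were found in all 15 tumour libraries, the lowest again being NNK_LPS_Sil_I3C 2 with 2 counts (0.0912 CPM, exact 95% interval 0.0110 to 0.329). As background, edgeR called 13.1% of all genes tested in NNK versus Control and 38.2% in NNK_LPS versus LPS. In bulk RNA, fewer cells that carry a transcript and less of it per cell cannot be told apart.

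**Figure D1:**
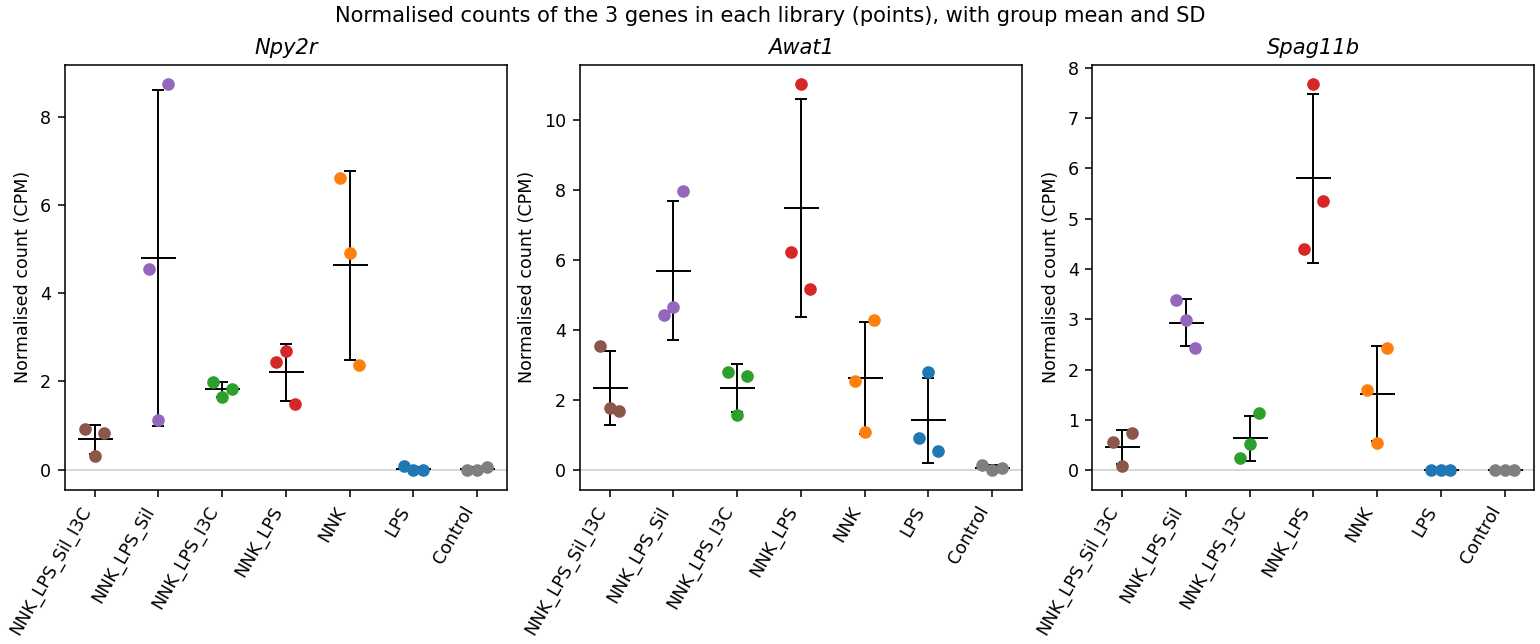
Normalised counts (CPM, linear axis from 0) of Npy2r, Awat1 and Spag11b in each of the 21 libraries, by group, with the group mean and SD as black bars. Spag11b is at 0 in all LPS and Control libraries and Npy2r is at or under 0.0716 CPM there, while Awat1 reaches 2.80 CPM in 1 LPS library.

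The order of group means differed between the genes. For Npy2r it ran from NNK_LPS_Sil (4.81 CPM) through NNK (4.63), NNK_LPS (2.21), NNK_LPS_I3C (1.82) and NNK_LPS_Sil_I3C (0.686) to LPS and Control. Neighbours in this order overlapped in their libraries except NNK_LPS_I3C over NNK_LPS_Sil_I3C and NNK_LPS_Sil_I3C over LPS. For Awat1 it ran from NNK_LPS (7.47 CPM) through NNK_LPS_Sil (5.69), NNK (2.63), NNK_LPS_I3C (2.35), NNK_LPS_Sil_I3C (2.34) and LPS (1.42) to Control, and only NNK_LPS_Sil over NNK and LPS over Control did not overlap. For Spag11b it ran from NNK_LPS (5.81 CPM) through NNK_LPS_Sil (2.94), NNK (1.53), NNK_LPS_I3C (0.633) and NNK_LPS_Sil_I3C (0.466) to 0 in LPS and Control. Here NNK_LPS over NNK_LPS_Sil, NNK_LPS_Sil over NNK and NNK_LPS_Sil_I3C over Control did not overlap. The share of all genes that separate is given further on for some of these pairs and was not counted for the others. Per kilobase of merged exon, a scale on which genes can be compared, NNK_LPS tumours held 5.38 CPM per kb of Awat1, 3.34 of Spag11b and 0.652 of Npy2r. NNK tumours held 1.90 of Awat1, 1.37 of Npy2r and 0.878 of Spag11b, so Npy2r and Spag11b changed places between these groups.

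Within groups Awat1 and Spag11b kept the same library order in NNK, where NNK 3 was highest and NNK 2 lowest for both, while Npy2r was lowest in NNK 3. In NNK_LPS replicate 2 was highest for all 3 genes, at 2.69 CPM of Npy2r, 11.0 of Awat1 and 7.67 of Spag11b. Npy2r spread widely in NNK_LPS_Sil, whose libraries stood at 4.55, 1.13 and 8.74 CPM, a 7.71-fold range. Spag11b in the same libraries stood at 3.38, 2.98 and 2.44 CPM, a 1.39-fold range, and was lowest in the library where Npy2r was highest.

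The comparison of NNK_LPS with NNK tumours asks how repeated LPS changes tumours, and it was not used to choose the genes. Awat1 and Spag11b stood higher with LPS and Npy2r lower, but none of the 3 passed the test. Awat1 had 6.23, 11.0 and 5.18 CPM in NNK_LPS, against 2.54, 1.09 and 4.27 CPM in NNK, a log2 difference of 1.50 ± 0.52 (SE, 95% interval 0.40 to 2.59, edgeR quasi-likelihood test with Benjamini-Hochberg adjustment, adjusted p = 0.182). Spag11b had 4.40, 7.67 and 5.35 CPM in NNK_LPS, against 1.60, 0.547 and 2.43 CPM in NNK, a log2 difference of 1.92 ± 0.55 (95% interval 0.74 to 3.11, edgeR adjusted p = 0.131). For both genes all libraries of NNK_LPS lay above all of NNK, as did 10.7% of the 15770 genes tested. Npy2r had 2.45, 2.69 and 1.48 CPM in NNK_LPS, against 6.62, 4.92 and 2.37 CPM in NNK, with overlap, and a log2 difference of -1.07 ± 0.54 (95% interval -2.21 to 0.06, edgeR adjusted p = 0.341). Of all genes tested, 0.0951% were called in this comparison. The batches of these groups differ and are linked only through the LPS libraries. With a batch term the log2 difference of Awat1 was 3.30 (edgeR adjusted p = 0.760). For Npy2r and Spag11b no such estimate can be had, since LPS 3, the only LPS library of batch B, holds no count of either gene. Over 6 neutrophil markers, all with counts in both groups, the summed level was 50.3 to 207 CPM in NNK_LPS, against 75.8 to 542 CPM in NNK, and its part in these differences was not tested.

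Silibinin in the diet gave no call for any gene. Between NNK_LPS_Sil and NNK_LPS, which share a batch, edgeR called 0 of 15770 genes (0%), 578 had an unadjusted p under 0.05, and DESeq2 called 0. Npy2r had 4.55, 1.13 and 8.74 CPM in NNK_LPS_Sil, against 2.45, 2.69 and 1.48 CPM in NNK_LPS, a log2 difference of 1.13 ± 0.54 (95% interval 0.00 to 2.26, edgeR adjusted p = 1.00). It was 0.34 without NNK_LPS_Sil 3. Spag11b had 3.38, 2.98 and 2.44 CPM in NNK_LPS_Sil, against 4.40, 7.67 and 5.35 CPM in NNK_LPS, with no overlap, which 2.79% of the genes tested also showed in this direction. Its log2 difference was -0.98 ± 0.52 (95% interval -2.11 to 0.14, edgeR adjusted p = 1.00). Awat1 averaged 5.69 ± 1.98 CPM in NNK_LPS_Sil and 7.47 ± 3.11 CPM in NNK_LPS (SD, n = 3 each), a log2 difference of -0.39 ± 0.50 (95% interval -1.44 to 0.66, edgeR adjusted p = 1.00) that was 0.00 without NNK_LPS 2. As folds, the intervals ran from 1.00 to 4.79 for Npy2r, 0.232 to 1.10 for Spag11b and 0.369 to 1.58 for Awat1.

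Lower values with I3C were part of what drew attention to these genes, so both comparisons that add I3C are given without a test. The standard errors and left-out-library values printed with them describe the spread between libraries. They cannot serve as a test, because the genes were chosen on these same values. Spag11b had 4, 12 and 29 counts (0.248, 0.521 and 1.13 CPM) in NNK_LPS_I3C, against 70, 117 and 94 counts (4.40, 7.67 and 5.35 CPM) in NNK_LPS, a pooled ratio of 0.120 and a log2 difference of -3.13 ± 0.58 (SE), or -3.88 without NNK_LPS_I3C 3. Awat1 had 45, 36 and 69 counts (2.79, 1.56 and 2.69 CPM) in NNK_LPS_I3C, against 99, 168 and 91 counts (6.23, 11.0 and 5.18 CPM) in NNK_LPS, a pooled ratio of 0.315 and a log2 difference of -1.67 ± 0.51. Both genes were lower in every I3C library than in any NNK_LPS library, as were 9.68% of the genes tested. Npy2r did not share the difference. It had 32, 38 and 47 counts (1.99, 1.65 and 1.83 CPM) in NNK_LPS_I3C, against 39, 41 and 26 counts (2.45, 2.69 and 1.48 CPM) in NNK_LPS, and the I3C libraries lay within the range of NNK_LPS (log2 difference -0.27 ± 0.55). The I3C library in the same batch as NNK_LPS, NNK_LPS_I3C 1, stood at 0.248 CPM of Spag11b, 2.79 of Awat1 and 1.99 of Npy2r, against means of 5.81, 7.47 and 2.21 CPM in NNK_LPS.

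Markers of lung epithelium and heart muscle also differed between NNK_LPS_I3C and NNK_LPS. All 8 alveolar type 2 markers had counts in both groups, and their sum was 36900 to 38200 CPM in NNK_LPS_I3C, against 49200 to 68200 CPM in NNK_LPS. The 7 heart muscle markers, all with counts in both groups, summed to 373 to 544 CPM in NNK_LPS_I3C, against 81.9 to 156 CPM in NNK_LPS and 530 to 557 CPM in Control lung. The 3 club cell markers went the other way from the type 2 markers, with an average sum of 24500 CPM in NNK_LPS_I3C and 16900 CPM in NNK_LPS. The part of tissue makeup in the I3C values was not tested. Scaled to 10000 CPM of the summed alveolar type 2 markers, a scale chosen after the data were seen, Spag11b averaged 0.170 ± 0.123 in NNK_LPS_I3C and 0.984 ± 0.212 in NNK_LPS (SD, n = 3 each). Awat1 averaged 0.629 ± 0.191 in NNK_LPS_I3C and 1.24 ± 0.326 in NNK_LPS on that scale. Npy2r averaged 0.487 ± 0.0515 in NNK_LPS_I3C and 0.369 ± 0.0599 in NNK_LPS on that scale, so its mean was then higher with I3C.

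**Figure D2:**
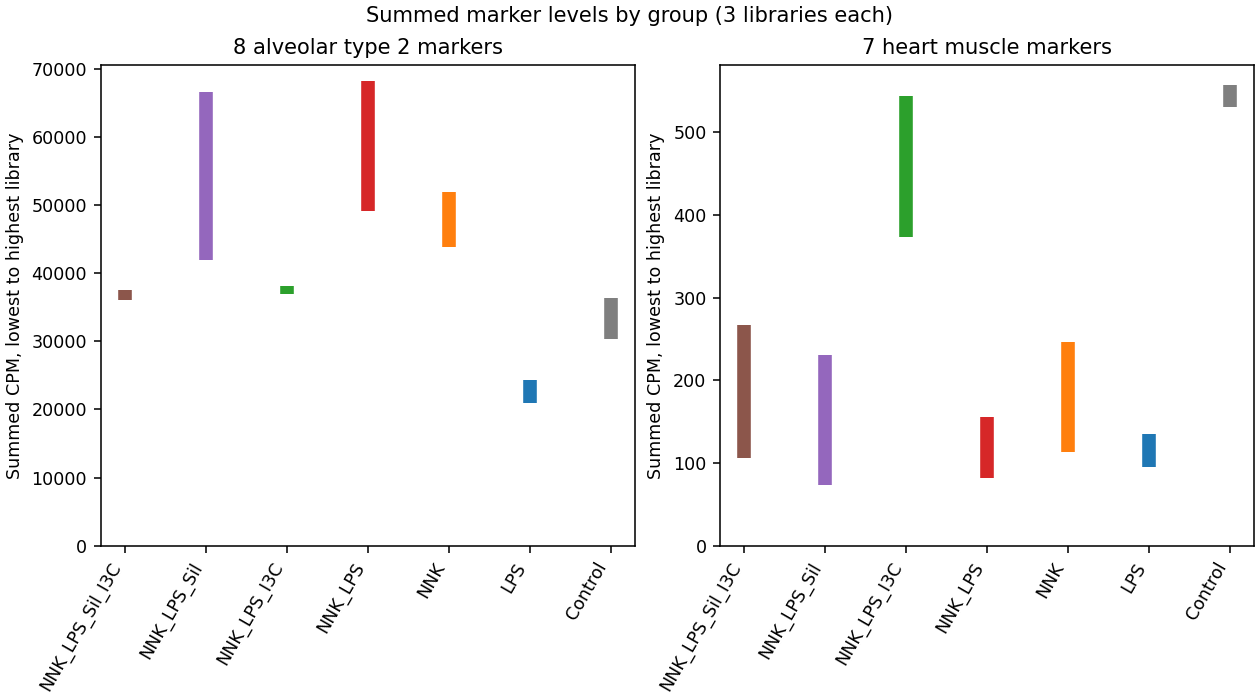
Summed CPM of 8 alveolar type 2 markers and of 7 heart muscle markers, each bar running from the lowest to the highest of the 3 libraries of a group, on linear axes from 0. In NNK_LPS_I3C the type 2 sum (36900 to 38200) lies below that of NNK_LPS (49200 to 68200) and the heart sum (373 to 544) above it (81.9 to 156).

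The other comparison that adds I3C sets NNK_LPS_Sil_I3C against NNK_LPS_Sil. All 3 genes had lower means with I3C added to silibinin, Npy2r among them. Npy2r had 0.916, 0.319 and 0.822 CPM in NNK_LPS_Sil_I3C, against 4.55, 1.13 and 8.74 CPM in NNK_LPS_Sil, a log2 difference of -2.80 ± 0.58 (SE). Leaving out 1 library at a time moved it between -3.26 and -2.03, the smallest difference being that without NNK_LPS_Sil 3. Spag11b had 0.573, 0.0912 and 0.735 CPM in NNK_LPS_Sil_I3C, against 3.38, 2.98 and 2.44 CPM in NNK_LPS_Sil, a log2 difference of -2.64 ± 0.62. Awat1 had 3.55, 1.78 and 1.69 CPM in NNK_LPS_Sil_I3C, against 4.43, 4.66 and 7.97 CPM in NNK_LPS_Sil, a log2 difference of -1.27 ± 0.51.

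In this comparison no library of the combined diet reached any silibinin library for any of the 3 genes, which 7.42% of all genes also showed in this direction, and edgeR called 0.266% of genes. The summed alveolar type 2 markers averaged 36700 CPM in NNK_LPS_Sil_I3C and 53400 CPM in NNK_LPS_Sil (8 of 8 markers with counts in both groups). The summed neutrophil markers averaged 68.5 CPM in NNK_LPS_Sil_I3C and 183 CPM in NNK_LPS_Sil (6 of 6 markers with counts in both groups). The part of either list in the result was not tested. The groups share no batch, and with a batch term, linked through the NNK_LPS_I3C libraries, the log2 differences were -2.61 for Npy2r, -4.38 for Spag11b and -0.88 for Awat1.

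The combined diet was also set against I3C alone, NNK_LPS_Sil_I3C against NNK_LPS_I3C. No gene passed the test, and edgeR called 0 of 15770 genes (0%), with 1687 at an unadjusted p under 0.05 and 72 called by DESeq2. Npy2r had 0.916, 0.319 and 0.822 CPM in NNK_LPS_Sil_I3C, against 1.99, 1.65 and 1.83 CPM in NNK_LPS_I3C, with no overlap, as in 8.82% of genes in this direction. Its log2 difference was -1.39 ± 0.59 (95% interval -2.65 to -0.14, edgeR adjusted p = 0.425). Awat1 had a log2 difference of 0.01 ± 0.53 (95% interval -1.10 to 1.12, edgeR adjusted p = 0.997) and Spag11b of -0.49 ± 0.67 (95% interval -1.93 to 0.95, edgeR adjusted p = 0.816). As folds, these intervals ran from 0.465 to 2.17 for Awat1 and from 0.262 to 1.94 for Spag11b. Leaving out NNK_LPS_I3C 3 turned the difference of Spag11b to 0.25, and leaving out NNK_LPS_Sil_I3C 1 that of Awat1 to -0.43. The 7 heart muscle markers averaged a sum of 171 CPM in NNK_LPS_Sil_I3C and 452 CPM in NNK_LPS_I3C, and the 6 neutrophil markers 68.5 CPM in NNK_LPS_Sil_I3C and 207 CPM in NNK_LPS_I3C, every marker with counts in both groups. The part of these lists in the Npy2r difference was not tested. Against the 2 I3C libraries of the same batch alone, the mean of NNK_LPS_Sil_I3C was 0.686 CPM, against 1.74 CPM, for Npy2r, 2.34 CPM, against 2.13 CPM, for Awat1, and 0.466 CPM, against 0.825 CPM, for Spag11b.

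**Figure D3:**
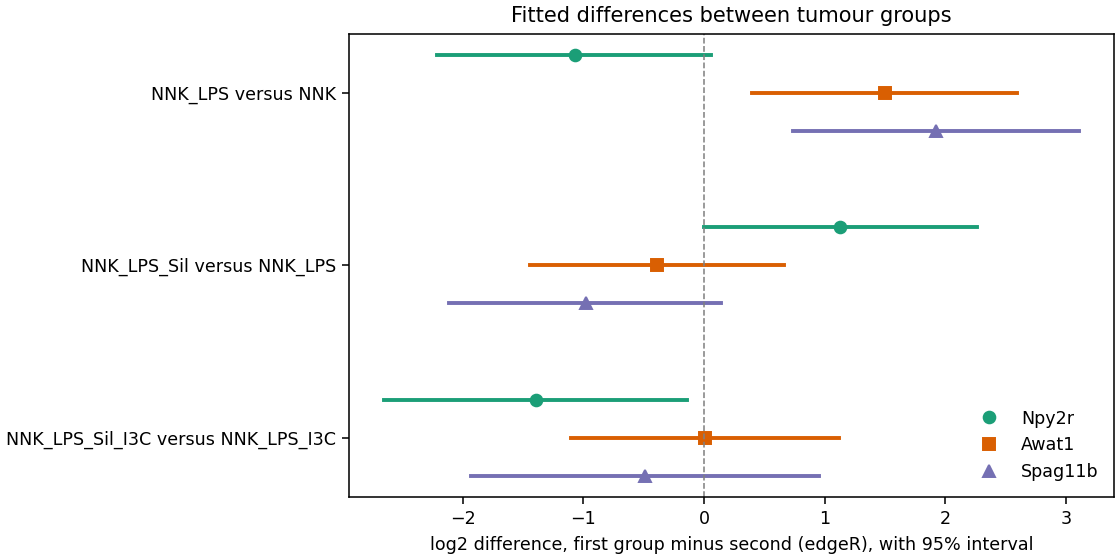
Fitted log2 differences (edgeR, x axis, log2 scale) of Npy2r, Awat1 and Spag11b in 3 comparisons between tumour groups, first group minus second, with 95% intervals of single genes that are not adjusted for the number of genes. For NNK_LPS versus NNK the intervals of Awat1 and Spag11b lie above 0, although no adjusted p is under 0.05.

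Other genes of each family did not show this pattern. In the neuropeptide Y system, Npy5r and Npy6r, further receptors of the family, had no counts in any group, and the ligand gene Pyy had 1 count in NNK and none elsewhere. The Y1 receptor gene Npy1r averaged 5.27 ± 0.922 CPM in NNK and 5.12 ± 0.632 CPM in Control (SD, n = 3 each, edgeR adjusted p = 0.938), so unlike Npy2r it was already read in normal lung. The ligand gene Npy had 23, 91 and 54 counts in LPS lung, against 1, 0 and 0 counts in Control lung, and rose in the test (edgeR adjusted p = 6.50e-06). Ligand and Y2 receptor RNA thus stood high in different groups, with 168 counts of Npy and 1 of Npy2r in LPS lung and 12 of Npy and 207 of Npy2r in NNK tumours. Dpp4, the peptidase that trims neuropeptide Y to a form that favours the Y2 receptor, fell by 1.23 ± 0.16 on the log2 scale in LPS versus Control (edgeR adjusted p = 8.98e-06). In NNK_LPS versus LPS, Npy fell by 3.30 ± 0.60 (edgeR adjusted p = 0.00028) and Dpp4 rose by 0.99 ± 0.16 on the log2 scale (edgeR adjusted p = 0.000121). Of the 3 genes of this list that were tested, 1 rose and 1 fell with LPS, where 50.0% of all genes were called, and none was called in NNK versus Control, where 13.1% were.

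Among 10 genes of neutral lipid acylation and wax synthesis, 7 were tested. Soat1, a cholesterol acyltransferase gene, rose in NNK versus Control by 0.65 ± 0.14 on the log2 scale (edgeR adjusted p = 0.00858), and Far1, which makes the fatty alcohols that wax synthases use, fell by 0.24 ± 0.07 (edgeR adjusted p = 0.0322). The other 5 tested genes were not called there. Awat2, a wax synthase gene of the same family, also on the X chromosome, had 41 counts in NNK and 31 in Control. Soat1 fell in NNK_LPS_I3C versus NNK_LPS by 0.74 ± 0.14 on the log2 scale (edgeR adjusted p = 0.0190), where 2.02% of genes were called, and no other gene of the list was called in that comparison. Soat2, another cholesterol acyltransferase gene, rose in LPS versus Control by 2.87 ± 0.52 (edgeR adjusted p = 0.00012) and fell in NNK_LPS versus LPS by 1.52 ± 0.42 (edgeR adjusted p = 0.0084), where Soat1 rose by 0.69 ± 0.14 (edgeR adjusted p = 0.000696), all on the log2 scale. Of 44 genes of the beta-defensin list, including Spag11a, none had enough counts to be tested. Their counts together came to 0.377 to 0.459 CPM in NNK_LPS, against 0.273 to 0.358 CPM in LPS, while Spag11b alone averaged 5.81 CPM in NNK_LPS. Spag11a had 4 counts in NNK_LPS and none in any other group.

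Nor did the neighbouring genes go from near 0 counts in Control to high counts in tumours. On the X chromosome, P2ry4, 11949 bases from Awat1, had 5 counts in NNK and 1 in Control. It had 8 counts in NNK_LPS, 7 in NNK_LPS_Sil, 3 in NNK_LPS_I3C, 1 in NNK_LPS_Sil_I3C and 1 in LPS. Like Awat1 it was thus highest in NNK_LPS, but with too few counts to be tested. Dgat2l6, 26107 bases from Awat1 on the other side, had 3 counts in NNK and 4 in Control. On chromosome 8, Defb34 and Defb12 had no counts at all, and Defb14 had 1 count, in NNK_LPS_I3C. On chromosome 3, Map9, 143115 bases from Npy2r, had 613 counts in NNK and 566 in Control, while Rbm46 on the other side had 41 counts in NNK and 67 in Control.

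Markers of the tissues in which the 3 genes are best known were also followed. Of 8 epididymis markers, Crisp4 and Lcn5 had no counts, and Crisp1, Lcn8 and Lcn9 had 1 count at most over a group. The list summed to 1.64 to 2.56 CPM in NNK, against 1.82 to 2.19 CPM in Control. The 13 neuron and glia markers summed to 7.69 to 9.00 CPM in NNK, against 8.36 to 9.29 CPM in Control, with Th at 0 in every group. The 10 skin and sebaceous gland markers summed to 86.1 to 97.2 CPM in NNK, against 94.5 to 105 CPM in Control, most of it from Krt79. Against LPS lung the picture differed, since the skin list averaged a sum of 90.3 CPM in NNK_LPS and 33.5 CPM in LPS, and the epididymis list 1.90 CPM in NNK_LPS and 0.971 CPM in LPS.

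Single genes of these lists passed the test. Of all genes tested, 13.1% were called in NNK versus Control and 38.2% in NNK_LPS versus LPS, against 1 and 3 of the 6 tested skin genes. Mc5r, a melanocortin receptor gene known from sebaceous glands, had 36 counts in NNK and 8 in Control (edgeR adjusted p = 0.0247), and 46 counts in NNK_LPS and 3 in LPS (edgeR adjusted p = 0.000367). Its mean was 0.340 CPM in NNK_LPS_I3C and 0.954 CPM in NNK_LPS, which did not pass the test (edgeR adjusted p = 0.102). In that comparison 0 of the 6 tested genes of the skin list were called. Krt1 (3.11 CPM with I3C, against 1.06 CPM), Krt5 (4.80, against 0.692) and Scd3 (1.51, against 1.22) had higher means with I3C. In NNK_LPS versus LPS, Krt79 was higher by 1.52 ± 0.33 on the log2 scale (edgeR adjusted p = 0.00186). Scd3, a fatty acid desaturase gene, was higher by 2.55 ± 0.60 (edgeR adjusted p = 0.00166) and Adam7 of the epididymis list by 0.91 ± 0.34 (edgeR adjusted p = 0.0443). Krt79 averaged 83.6 CPM in NNK_LPS, 29.1 CPM in LPS and 93.7 CPM in Control, so its tumour level was not above that of Control. Adam7 averaged 1.30, 0.693 and 1.05 CPM in the same groups, and Scd3 1.22, 0.205 and 0.383 CPM. Of the neuron and glia list, Scn10a fell in NNK versus Control by 2.13 ± 0.69 (edgeR adjusted p = 0.0383) and in NNK_LPS versus LPS by 1.71 ± 0.54 (edgeR adjusted p = 0.0163). The part of these markers in the values of Npy2r, Awat1 and Spag11b was not tested. Neutrophil markers summed to 75.8 to 542 CPM in NNK, against 32.2 to 96.1 CPM in Control, where Ly6g had no counts, and to 50.3 to 207 CPM in NNK_LPS, against 810 to 1030 CPM in LPS lung.

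Over the whole table, 11 genes had at most 3 counts summed over Control and at least 30 summed counts in each of NNK and NNK_LPS, limits set with the values of the 3 genes already known. Of these, 6 were immunoglobulin segments. The other 5 were Npy2r, Awat1, Spag11b, Serpinb5, a serpin gene with 57 counts in NNK and 2 in Control, and Hecw1, a ubiquitin ligase gene with 40 counts in NNK and 3 in Control. Only Npy2r and Spag11b of these 5 had at most 3 counts in LPS lung, while Serpinb5 had 13 and Hecw1 7.

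Genes nearest in pattern were found by the root mean square difference of log2 CPM, centred for each gene, over all 21 libraries. For Npy2r the nearest were Meg3 (0.87), Ros1 (0.91), Tmem213 (0.94), Rian (0.95) and Mirg (0.97), against a median of 2.10 over genes. Meg3, Rian and Mirg are non-coding RNAs of the imprinted Dlk1-Meg3 region, and Ros1 encodes a receptor tyrosine kinase. For Awat1 they included Etv4 (0.83), Tnfsf9 (0.87), Ereg (0.95) and Fbp2 (1.04), against a median of 1.76. Etv4 encodes an ETS transcription factor, Ereg an EGF receptor ligand and Tnfsf9 a TNF family ligand. For Spag11b they were Tmem213 (1.07), Cyp4a12a (1.08), Myh13 (1.10), Mirg (1.12) and Ros1 (1.12), against a median of 2.13. Cyp4a12a is a cytochrome P450 gene and Myh13 a myosin heavy chain gene. The differences between the 3 genes themselves were 1.21 for Npy2r and Spag11b, 1.22 for Awat1 and Spag11b, and 1.44 for Npy2r and Awat1. The libraries share groups, batches and tumour against lung tissue, so this likeness describes these libraries only.

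The genes named as near Awat1 in pattern were, like Awat1, higher in mean in LPS lung than in Control lung. This is partly built in, since the likeness was measured over the LPS and Control libraries too. Ereg averaged 7.92 CPM in LPS and 0.297 CPM in Control, and Tnfsf9 6.25 CPM in LPS and 1.54 CPM in Control. Etv4 averaged 1.45 CPM in LPS and 0.447 CPM in Control, and Fbp2 17.0 CPM in LPS and 11.2 CPM in Control. Of the genes nearest to Npy2r and Spag11b, Meg3 averaged 17.6 CPM in LPS and 12.1 CPM in Control, and Rian 8.03 CPM in LPS and 6.35 CPM in Control. Mirg averaged 0.308 CPM in LPS and 0.200 CPM in Control. Ros1, Tmem213, Cyp4a12a and Myh13 had lower means in LPS than in Control, with Cyp4a12a at 0.0676 CPM in LPS and 0.243 CPM in Control.

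**Figure D4:**
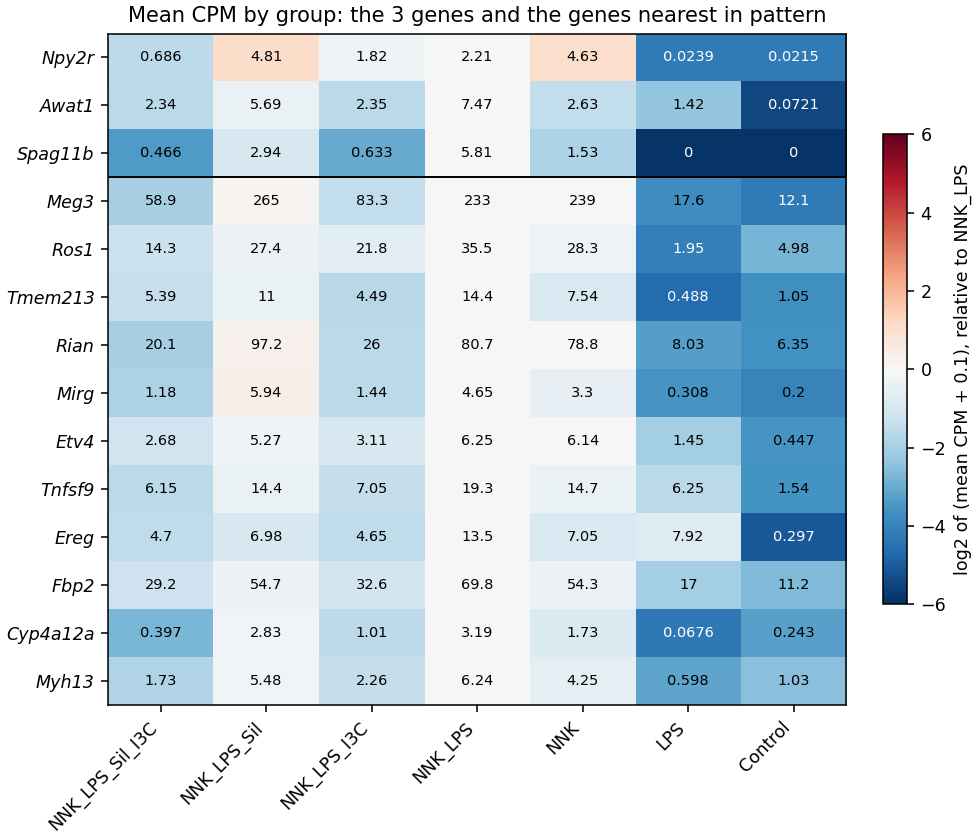
Mean CPM by group (numbers in cells) of the 3 genes, above the line, and of 11 genes near them in pattern, with colour showing log2 of the mean CPM plus 0.1 relative to NNK_LPS. All rows but Npy2r, Meg3, Rian and Mirg have their highest group mean in NNK_LPS, where Meg3, Rian and Mirg are highest in NNK_LPS_Sil.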

How the data were processed

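RNA was sequenced from 21 libraries of mouse lung or lung tumour, prepared with the TruSeq RNA kit per the labels' protocols. The authors deposited 1 table of whole-number counts per gene symbol, without normalization, and mm10 is the build named in the submitters' processing notes. The sources used here do not name aligner, counting tool, annotation or strand setting. Of 38924 symbols, 16756 had no counts. TMM scaling (trimmed mean of M-values) was done in edgeR 4.0.16 (R 4.3.3), and low genes were removed with filterByExpr (minimum count 10). A robust quasi-likelihood model was fitted to the 7 groups (14 residual degrees of freedom, common biological coefficient of variation 0.168). Benjamini-Hochberg adjustment covered all 15770 genes tested, with calls under 0.05. Standard errors and 95% intervals come from the fitted weights of each gene. Log2 CPM for the likeness measure used a prior count of 2. On simulated counts for NNK_LPS versus NNK with 15612 genes left, 91.0% of 200 genes changed 4-fold were recovered and 2 unchanged genes were called. The changed genes were drawn at random from all genes that passed the filter, and no batches or other group differences were simulated. That share therefore does not give the power for genes with counts as low as those of Npy2r, Awat1 and Spag11b.

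The members and lists were chosen with earlier results of these data known. Named genes were the 3 members, the 5 nearest in pattern to each (leaving out unnamed models and segments of immunoglobulin or T-cell receptor genes), 2 protein-coding neighbours on each side, and genes of the fixed lists that were called or high. Some genes that this rule names are not reported here. Ppyr1 of the lists has no row under that symbol. Libraries of a group differed by more than counting noise (chi-square per degree of freedom 5.06 to 57.3), so none was merged. Matching by the labels' replicate numbers was judged by the correlation of same-numbered deviations. Each library of the first group correlated best with its own number in NNK_LPS_I3C versus NNK_LPS (0.16, 0.28 and 0.26). The same held in NNK versus Control (0.18, 0.03 and 0.29), and in no other comparison. Any such pairing comes from the data and not from the labels. Coordinates are those of GENCODE M21 (GRCm38), the same assembly as mm10. The alternatives tried were relative log expression scaling, all genes unfiltered, DESeq2 1.42.0, the compared groups alone, the replicate block, a batch term and leaving out each library, with fits to 1 batch added after the data were seen.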

Additional observations from a re-analysis of the deposited data

How the results depend on the processing

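The directions given for Npy2r, Awat1 and Spag11b held in the alternatives run, with these exceptions. Awat1 in NNK_LPS_Sil versus NNK_LPS went to 0.00 without NNK_LPS 2. For NNK_LPS_Sil_I3C versus NNK_LPS_I3C, leaving out 1 library gave log2 differences of -0.43 to 0.20 for Awat1 and -0.94 to 0.25 for Spag11b. Spag11b kept its direction but moved in size to -4.38 with the batch term in NNK_LPS_Sil_I3C versus NNK_LPS_Sil. In NNK_LPS_I3C versus NNK_LPS it moved, again in the same direction, to -4.55 with the batch term and -4.57 in batch B alone. Without NNK_LPS_I3C 3 it was -3.88, a change smaller than the spread between libraries. For Npy2r and Spag11b in NNK_LPS versus NNK the batch term could not be fitted, since LPS 3, the only LPS library of batch B, has no count of either.

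Counts of called genes moved more. DESeq2 called 492 in NNK_LPS versus NNK, 179 in NNK_LPS_Sil_I3C versus NNK_LPS_Sil, 72 in NNK_LPS_Sil_I3C versus NNK_LPS_I3C and 1042 in NNK_LPS_I3C versus NNK_LPS. With the compared groups alone the last was 5, and NNK_LPS_Sil_I3C versus NNK_LPS_Sil was 9. The batch term gave 0 for NNK_LPS versus NNK and for NNK_LPS_Sil_I3C versus NNK_LPS_Sil, 3979 for NNK_LPS versus LPS and 60 for NNK_LPS_I3C versus NNK_LPS, and batch B alone 1836 and 0 for the last pair of comparisons. Leaving out 1 library gave 0 (without NNK 2) to 223 (without NNK_LPS 3) for NNK_LPS versus NNK, 404 (without Control 2) to 1840 for NNK versus Control, 21 (without NNK_LPS 2) to 794 (without NNK_LPS 1) for NNK_LPS_I3C versus NNK_LPS, 21 to 64 for NNK_LPS_Sil_I3C versus NNK_LPS_Sil and 0 to 2 for NNK_LPS_Sil_I3C versus NNK_LPS_I3C. The cause was not tested. With the replicate block 277 genes were called in NNK_LPS_I3C versus NNK_LPS and 2311 in NNK versus Control, where same numbers matched best. The block changed no call of the 3 genes. Elsewhere the libraries share only a number, and the block gave 37 for NNK_LPS versus NNK, 68 for NNK_LPS_Sil_I3C versus NNK_LPS_Sil and 1 for NNK_LPS_Sil_I3C versus NNK_LPS_I3C. Group means of the 3 genes moved by less than 1 SD under the other scalings. At these depths a gene with no count in a group of 3 libraries may stand at up to 0.0421 to 0.0690 CPM.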
